A study of Arabidopsis thaliana with 6 samples.

Results

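SWEET proteins are sugar carriers of plant membranes, and 5 of their genes were detected in seedlings of Arabidopsis thaliana: SWEET1, SWEET2, SWEET11, SWEET16 and SWEET17. They were selected on their expression level: a probe set had to name 1 gene with a SWEET symbol and reach a log2 value of 5 or more on 3 or more of the 6 arrays. This took 5 of 14 probe sets with such a symbol and of 22746 probe sets in all. The level rule does not use the difference between the genotypes, although the family was picked with earlier results of these data known, and each gene lay above 5 on all 6 arrays. Of 13262 probe sets that passed the same level, 7083 name 1 gene.

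RNA came from whole seedlings aged 10 days, 3 samples from the sdg2 mutant and 3 from wild type, both of the Columbia (Col-0) accession and raised on half-strength MS medium in plates at 22 °C under light for 24 h per day. SDG2 (SET DOMAIN GROUP 2) is an enzyme that adds methyl groups to lysine 4 of histone H3, a mark of active genes. The labels name the mutant only as sdg2, without its allele, and SDG2 itself was not analysed here, so the genotype was not checked on the targeted gene. Replicates are called biological, but how they were kept apart is not said, so p-values cover only the spread among these samples, some of which may be technical.

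SWEET carriers let sugars move across a membrane down their gradient, in either direction and without a direct supply of energy. In Arabidopsis they fall into clades, some carrying mainly hexoses and others mainly sucrose, and some sit in the plasma membrane while others sit in the tonoplast, the membrane of the vacuole. They are known for exporting sucrose ahead of its loading into the phloem, for filling and emptying the vacuole, and for feeding pollen, nectaries and seeds.

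In sdg2 seedlings the vacuolar carrier gene SWEET2 was 7.53-fold lower than in wild type, the vacuolar SWEET16 3.02-fold lower and the sucrose exporter gene SWEET11 2.37-fold lower. SWEET1, a glucose carrier gene, was 1.76-fold higher. SWEET17, which encodes a fructose carrier of the vacuole closely related to SWEET16, did not pass the test. A change was called at an adjusted p below 0.05 in limma, fitted on the whole table of log2 values with Benjamini-Hochberg adjustment over 22746 probe sets. Of the 5 genes 4 were called, where 57.9% of all expressed probe sets and 36.6% of all probe sets were called. A count of 4 in 5 lies near that background and is not a result about these genes. Of the calls 1 was higher, against 30.0% of expressed probe sets, and 3 were lower, against 27.9%. The groups did not overlap in the same 4 genes, as in 69.6% of expressed probe sets. All 3 falls exceeded 2-fold, a size of fall found in 8.45% of expressed probe sets. The median change of the 5 genes was -1.25, beside 0.03 over all expressed probe sets. As the family was picked with earlier results of these data known, these sizes and the median are a description and not a test.

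**Figure D1:**
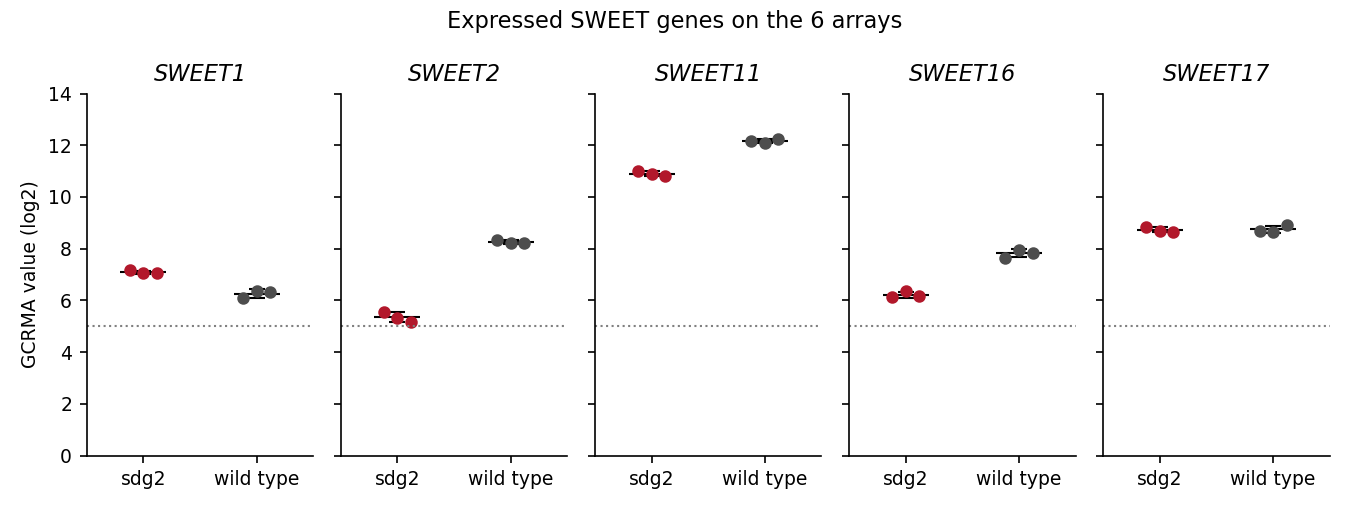
GCRMA value (log2) of each expressed SWEET gene on the 6 arrays, sdg2 left of wild type. Points are arrays, the horizontal mark is the mean and the bar is the SD (n = 3 per group), and the dotted line is the level of 5; the groups are apart in SWEET1, SWEET2, SWEET11 and SWEET16 and overlap in SWEET17.

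SWEET1 encodes a glucose carrier found at the plasma membrane. Its log2 values were 7.16, 7.05 and 7.05 in sdg2 and 6.08, 6.38 and 6.34 in wild type. The lowest sdg2 array lay above the highest wild type array. The change was 0.82 ± 0.09 (SE, n = 3 per group; 95% interval 0.59 to 1.05; adjusted p = 0.00163 in limma). A rise at least this large was found for 1451 expressed probe sets, or 10.9%.

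SWEET2 belongs to the same clade as SWEET1 but works at the tonoplast, and it is known for retaining sugar in root cells. Its log2 values were 5.55, 5.32 and 5.18 in sdg2 and 8.35, 8.22 and 8.22 in wild type. The groups lay far apart, and the sdg2 arrays were the nearest to the level of 5 that any of the 5 genes came. The change was -2.91 ± 0.10 (SE, n = 3 per group; 95% interval -3.18 to -2.65; adjusted p = 4.63e-05 in limma). Only 91 expressed probe sets, or 0.686%, including SWEET2, fell as far. Even the sdg2 values stood well above the lower mode of unexpressed probe sets, which was at 2.18 to 2.21, so this fold is not set against background.

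SWEET11 exports sucrose from phloem parenchyma cells of leaves, the step before sucrose is loaded into the phloem. The log2 values were 11.02, 10.87 and 10.82 in sdg2 and 12.15, 12.07 and 12.24 in wild type. Every sdg2 array was below every wild type array. SWEET11 changed by -1.25 ± 0.07 (SE, n = 3 per group; 95% interval -1.42 to -1.07; adjusted p = 0.000172 in limma). SWEET12, its close relative with an overlapping role, was not analysed here, and whether the SWEET11 probe set also reads SWEET12 transcripts was not tested.

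SWEET16 and SWEET17 form the clade of the vacuole, and SWEET16 carries glucose, fructose and sucrose. Its log2 values were 6.14, 6.36 and 6.18 in sdg2 and 7.66, 7.96 and 7.85 in wild type. The groups did not overlap, and the change was -1.59 ± 0.10 (SE, n = 3 per group; 95% interval -1.85 to -1.34; adjusted p = 0.000248 in limma). Falls of this size or larger were found in 3.72% of expressed probe sets.

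SWEET17 read 8.85, 8.69 and 8.66 on the log2 scale in sdg2, and 8.70, 8.66 and 8.91 in wild type. These ranges overlap almost fully. The change of -0.02 ± 0.09 (SE, n = 3 per group) had a 95% interval from -0.25 to 0.20 (adjusted p = 0.853 in limma). Differences within that interval are compatible with these values and are not excluded.

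The changes can be set side by side within each clade. The change of SWEET1 exceeded that of its clade relative SWEET2 by 3.73 on the log2 scale, and the change of SWEET16 was below that of its clade relative SWEET17 by a difference of -1.57. SWEET11 and SWEET16 lay closest, 0.35 apart. For the per-array difference, each of the 10 pairs of members had an exact two-sided permutation p = 0.1 (0.1 after adjustment over the 10 pairs), the smallest that 3 arrays against 3 allow. None of these differences can pass 0.05 by that test, so unequal change between members was not established by it.

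**Figure D2:**
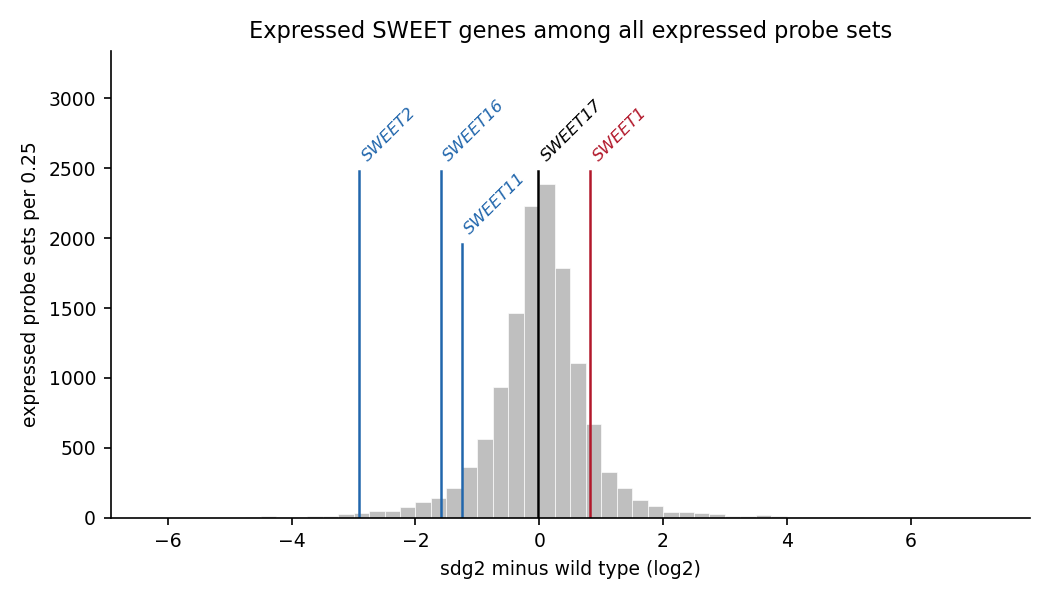
Number of expressed probe sets by their change, sdg2 minus wild type on the log2 scale, in steps of 0.25, with a vertical line for each expressed SWEET gene (red higher, blue lower, black not past the threshold). SWEET2 at -2.91 lies in the far left tail, SWEET16 and SWEET11 at -1.59 and -1.25 in the left shoulder, and SWEET17 at -0.02 at the centre.

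The other 11 measured genes of the family stayed below the level. By locus the family has 17 listed genes, 16 of them measured, which include AtVEX1 (SWEET5) and SAG29 (SWEET15) under other symbols. Here and below, a listed gene counts as measured if the annotation gives it a probe set that names it alone. SWEET4, a hexose carrier gene, came closest from below, with 4.66, 4.67 and 4.71 in sdg2 and 4.52, 4.90 and 4.65 in wild type, and its change was -0.01, not past the threshold. In 9 of the 11, both means were below 3, near the lower mode. They include genes best known from flowers, such as SWEET8 of the tapetum, with means of 1.94 in both groups, and the nectary gene SWEET9, with means of 1.97 in sdg2 and 1.99 in wild type. AtVEX1, a gene of the pollen vegetative cell, had means of 2.33 in sdg2 and 2.60 in wild type.

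SAG29 was called among these 11, and no other. SAG29 (SWEET15) is a gene of senescing leaves and of the seed. Its log2 values were 2.52, 2.42 and 2.38 in sdg2 and 2.07, 2.06 and 2.08 in wild type. The groups did not overlap, but both sat close to the lower mode, so the change of 0.37 ± 0.04 (adjusted p = 0.00181 in limma) is not a measured ratio of amounts. Of 8 listed senescence genes 3 were measured and the other 5 not analysed here. These 3 rose, where 19.0% of all and 30.0% of expressed probe sets were called higher. The immune regulator gene SAG101 rose by 1.75, and the transcription factor genes WRKY6 by 1.09 and WRKY53 by 0.38. SAG101 reached the level of 5 on the sdg2 arrays alone, with 4.64, 4.61 and 4.34 in wild type. SWEET13 had 2.98, 3.00 and 2.75 in sdg2 and varied more within wild type, with 3.73, 2.99 and 2.88, and SWEET6 had a wild type value of 2.94 on replicate 3 beside 2.12 on the others. The change of SWEET13 was -0.29 and that of SWEET6 -0.28, and neither passed.

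**Figure D3:**
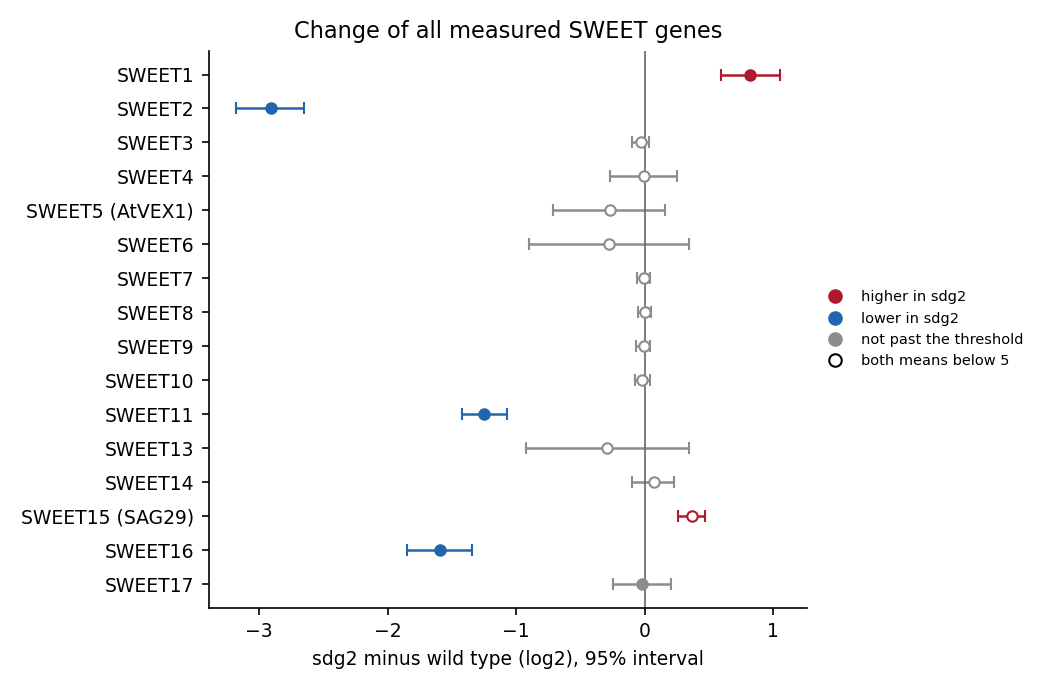
Change of all 16 measured SWEET genes, sdg2 minus wild type on the log2 scale, with the 95% interval of the limma fit. Filled points have at least 1 group mean at 5 or above and open points have both below it; 4 filled points stand clear of 0, and so does the open point of SAG29, whose means are near background; the intervals of the other open points include 0 and are widest for AtVEX1, SWEET6 and SWEET13.

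Other sugar carriers were few in the annotated table and changed in both directions. Active uptake of hexose from the apoplast is the work of STP carriers, and 4 of 14 listed genes were measured, 1 higher and 3 not past the threshold (median -0.01). The riser, AT5G61520, had 7.99, 8.16 and 8.09 in sdg2 and 6.88, 7.02 and 6.04 in wild type, a change of 1.44 ± 0.27 (adjusted p = 0.0115 in limma). The other 3 lay below 3 in both groups. Over all probe sets the share called higher was 19.0% and the share called lower 17.6%, with a median change of -0.01.

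Carriers that fill or empty the vacuole stand next to SWEET2, SWEET16 and SWEET17 in function. Of 10 listed loci 6 were measured, 2 higher, 1 lower and 3 not past the threshold (median 0.08). TMT2, a gene for a tonoplast carrier that pumps sugar into the vacuole, had 7.58, 7.44 and 7.68 in sdg2 and 7.36, 7.26 and 7.23 in wild type, and rose by 0.28 (adjusted p = 0.0312). That call was lost when sdg2 replicate 1 or 3, or else wild type replicate 2 or 3, was left out (adjusted p of 0.0695 to 0.0951), with unmoderated statistics (0.0678) and with a replicate block (0.0645). Its relative TMT1, with a change of -0.09, was not called. AT5G17010 rose by 0.82 ± 0.09, with means of 7.84 in sdg2 and 7.03 in wild type. SFP2, of the ERD6-like carriers, fell by 0.48 ± 0.05, while its neighbour in the genome SFP1 was not called at 0.05.

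Of 19 listed ERD6-like carrier genes 10 were measured, and 1 rose, 1 fell and 8 did not pass (median -0.01). AT3G05400 had 5.61, 5.97 and 5.45 in sdg2 against 3.36, 2.91 and 3.63 in wild type, a change of 2.38 ± 0.23 (adjusted p = 0.00105). Its wild type values are not far above background, so this is not a firm ratio of amounts. SFP2, counted above, is the gene that fell. Of 10 polyol and inositol carrier loci 2 were measured, 1 higher and 1 not past the threshold (median -0.15). AT2G18480 had means of 3.31 in sdg2 and 4.03 in wild type, a change of -0.72 that was not called (adjusted p = 0.115 in limma). AT2G20780 rose by 0.42 ± 0.10 (adjusted p = 0.0247), a call lost when sdg2 replicate 3, or else wild type replicate 1 or 3, was left out (0.0636 to 0.0818), with unmoderated statistics (0.0595) and with a replicate block (0.0784). The sucrose-proton symporters of the SUC family, the plastid sugar carriers, the hexokinases and the trehalose phosphate genes were not analysed here.

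Few listed genes of sucrose and starch metabolism had a probe set that names them alone, and unnamed probe sets were not searched for the rest. Of 12 listed loci of sucrose synthesis and sucrose synthase 2 were measured, and both rose, where 30.0% of expressed probe sets were called higher. ATSPS4F, a gene for sucrose phosphate synthase, the enzyme that commits carbon to sucrose, had 9.11, 9.30 and 9.15 in sdg2 and 6.54, 6.52 and 6.04 in wild type. It rose by 2.82 ± 0.15 (SE, n = 3 per group; adjusted p = 0.000165 in limma), a 7.06-fold difference with no overlap. AT2G35840, listed by its locus, rose by 0.71 ± 0.06, with means of 9.20 in sdg2 and 8.50 in wild type.

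Of 34 genes listed for starch synthesis and breakdown 6 were measured, and these rose (median 1.73), where 19.0% of all and 30.0% of expressed probe sets were called higher. The other listed genes were not analysed here, so nothing is said of the pathway as a whole. APL3 and APL4 encode large subunits of ADP-glucose pyrophosphorylase, the first committed enzyme of starch synthesis. APL3 had 6.25, 6.54 and 6.37 in sdg2 and 3.05, 3.12 and 4.47 in wild type, and rose by 2.84 ± 0.42 (adjusted p = 0.00448), with wild type values not far above background on replicates 1 and 2. APL4 rose by 1.69, with means of 4.85 in sdg2 and 3.16 in wild type. AMY1, a gene for an alpha-amylase, rose by 1.60, with means of 4.24 in sdg2 and 2.64 in wild type. The wild type means of both are low, so their folds are set against values not far above background. SBE2.2, a starch branching enzyme gene, rose by 1.30. PWD, which encodes a dikinase that marks starch granules for breakdown, rose by 1.77 and DPE1, which encodes the disproportionating enzyme, by 1.81 ± 0.07, a 3.50-fold difference. DPE1 read 9.11, 9.19 and 9.16 in sdg2 and 7.41, 7.42 and 7.20 in wild type. Invertases, which split sucrose, gave no call in 2 measured of 10 listed loci. Of these, cwINV6 had the larger change, 0.44, and did not pass (adjusted p = 0.242 in limma; unadjusted p = 0.126).

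**Figure D4:**
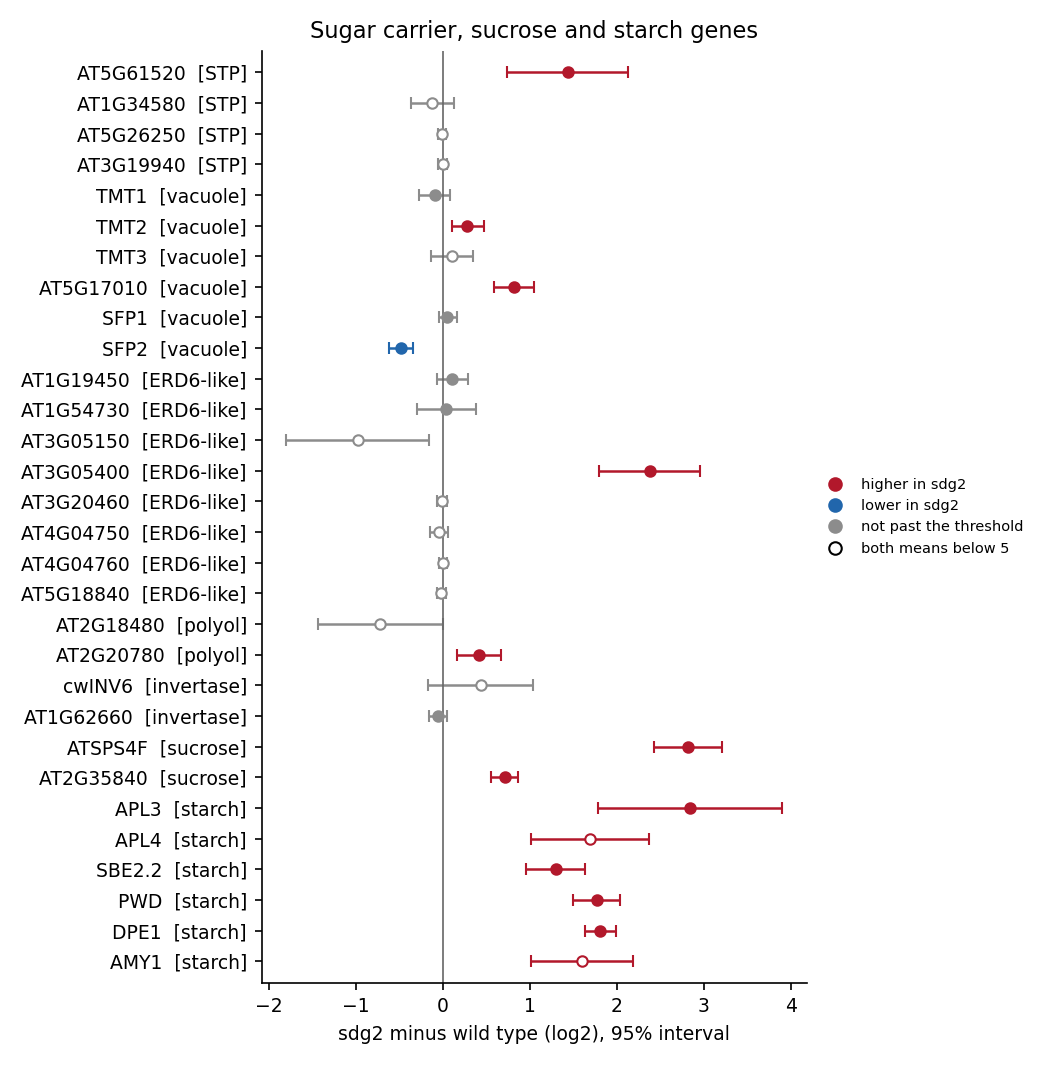
Change of the measured genes of the sugar carrier, invertase, sucrose and starch lists, sdg2 minus wild type on the log2 scale, with the 95% interval of the limma fit. Open points have both group means below 5; the 2 sucrose and 6 starch genes all lie above 0, while the carriers lie on both sides.

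Tissue make-up was read from marker lists, since SWEET2 and SWEET17 are known from roots, SWEET11 from the phloem and SWEET16 from vascular cells. In whole seedlings fewer cells of a type and less RNA per cell cannot be told apart. Of 8 listed root markers 3 were measured, and 2 fell, where 27.9% of expressed probe sets were called lower. PYK10, a root glucosidase gene, fell by 0.33 (adjusted p = 0.0423) and the root hair gene EXPA18 by 0.33 (adjusted p = 0.00956), while EXPA7, at -0.75, was not called (adjusted p = 0.128). EXPA7 was called with a replicate block (0.0273), with dim probe sets left out (0.0286), with array weights (0.0302) and without wild type replicate 3 (0.0363). PYK10 was no longer called with quantile normalization (adjusted p = 0.126), with unmoderated statistics (0.0884), with only probe sets that name 1 gene tested (0.0504) and when sdg2 replicate 1 or 3, or else wild type replicate 2 or 3, was left out (0.109 to 0.122). The summed log2 level of the 3 root markers was 24.92 to 25.50 on the sdg2 arrays and 26.08 to 27.02 on the wild type arrays. That sum includes EXPA7, which was not called and whose groups overlap. Groups that do not overlap were found in 69.6% of expressed probe sets. Of the 2 SWEET genes known from roots, SWEET2 changed by -2.91, and SWEET17, at -0.02, was not called. What part a shift of the root markers has in either value was not tested.

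Of 7 listed phloem markers only GSTU20, a glutathione transferase gene, was measured, so the amount of phloem cannot be read from this list. GSTU20 rose by 1.35 ± 0.13, with 11.18, 11.58 and 11.39 in sdg2 and 9.90, 10.19 and 9.99 in wild type. The 8 listed xylem and vascular markers were not analysed here. RCA, a gene of photosynthetic cells and the only measured one of 8 mesophyll markers, was not called, with a change of 0.09. Of 6 guard cell markers 3 were measured, and FMA (FAMA), a gene of guard cell formation, fell by 0.52 (adjusted p = 0.0461). This call was lost in 8 of 14 other settings, with adjusted p up to 0.134. SPCH went the other way, by 0.71 with no overlap between the groups, and was not called (adjusted p = 0.0788 in limma). MUTE lay near background, with a change of -0.01. The summed level of the 3 was 11.80 to 12.32 in sdg2 and 11.46 to 12.15 in wild type. What part these markers' shifts have in the SWEET changes was not tested.

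For each expressed SWEET gene the 3 genes with the most similar profile were taken from 7082 other expressed probe sets that name 1 gene, by the root mean square distance over the 6 arrays after centring each profile on its own mean. The values share the same arrays, and the genotype difference sets most of each profile. SWEET1 was closest to AT5G02590 (distance 0.0342 log2 units), the plastid RNA polymerase gene rpoC2 (0.0368) and AT2G38550 (0.0506), which changed by 0.87, 0.76 and 0.79. SWEET2 was closest to AT5G22390 (0.0494), AT5G08350 (0.081) and AT1G05340 (0.102), with changes of -2.92, -2.82 and -3.01. AT5G22390 reached the level of 5 on the wild type arrays alone, with 4.91, 4.65 and 4.44 in sdg2. Near SWEET11 lay AT5G50100 (0.0561), AT1G79160 (0.0631) and AT5G04910 (0.0637), with changes between -1.21 and -1.16. SWEET16 had AT2G40420 (0.0906), AT3G27770 (0.102) and AT3G10080 (0.102) nearest, with changes between -1.68 and -1.62. The genes nearest to SWEET17, AT1G48830 (0.0251), AT5G27930 (0.0343) and AT5G42960 (0.0343), had changes of -0.04, -0.03 and 0.02, none past the threshold.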

How the data were processed

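Per the submitters' processing notes, the deposited values were made with GCRMA, which adjusts background, quantile-normalizes and summarises probes, from 1-colour Affymetrix arrays. The values deposited by the authors are on the log2 scale, read from their range. No source used here gives its version or settings. Quantile normalization makes the arrays alike, so a shift common to all genes cannot be seen. Arrays correlated at 0.997 to 0.998 within a genotype and at 0.970 to 0.971 between genotypes, and array medians were 5.90 to 5.96. The number of arrays limits the precision.

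Of 22810 probe sets, 64 controls were left out. The platform annotation gives 1 gene for 13513 of the rest, several for 503 and no entry for 8730, which stay unnamed. Symbols were updated through an NCBI table (assembly TAIR10.1; 13436 matches). The test was that of limma 3.58.1 (lmFit, eBayes; R 4.3.3), sdg2 minus wild type. Figures used matplotlib 3.10.9. The members, lists and tests were chosen with earlier results of these data known, and the ERD6-like, trehalose and starch lists were added after the annotation had been seen. Named genes were all SWEET genes, up to 2 rises and 2 falls per list (or the largest change where none passed) and the 3 nearest profiles per member. WRKY53, TMT1, SFP1, EXPA7, SBE2.2, PWD, APL4, AMY1 and the genes of the closing observations fall outside this rule and were named after their values were seen. The same holds for SPCH, MUTE and AT2G18480. Pairs of members were compared with an exact permutation test, recomputed with quantile normalization only. Changes of the genes named, except SPCH, MUTE and AT2G18480, were recomputed in other settings. These were quantile normalization, a filter on dim probe sets, median centring, a replicate block, and trend and robust moderation. Unmoderated statistics, array weights, only probe sets naming 1 gene and each array left out were also used. Same-numbered replicates did not deviate together (correlations of -0.01, 0.07 and 0.06).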

Additional observations from a re-analysis of the deposited data

How the results depend on the processing

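SWEET1, SWEET2, SWEET11 and SWEET16 kept their direction and their call in all 14 alternatives run for each, those for SWEET11 and SWEET17 having been chosen after seeing the data. Changes ranged from 0.72 to 0.87 for SWEET1 (highest adjusted p = 0.0151), from -3.01 to -2.83 for SWEET2 (0.00149), from -1.30 to -1.19 for SWEET11 (0.00376) and from -1.69 to -1.53 for SWEET16 (0.00221). SWEET17 passed in none and ranged from -0.08 to 0.05. The replicate block, whose numbers do not pair the samples, left 7865 calls over all probe sets against 8327, and changed no call of these 5 genes. With only probe sets naming 1 gene, 4114 were called, since fewer were tested, and leaving out 1 array gave 7368 to 7565. The rule found 6 SWEET genes at a level of 4, SWEET4 being added, and 5 at a level of 6, where SWEET2 passed through its wild type arrays alone. Among 59 other genes named and recomputed, 31 of 809 values lost a call, 4 gained one (all of EXPA7) and no called value changed direction. All differences between pairs of members kept their sign with quantile normalization. Signals near the lower mode limit what can be said of the 11 dim SWEET genes.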

Other observations

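The genes beside the expressed SWEET genes, taken by gene order, did not share their changes in every case. SWEET17, which did not pass, lies next to DI21, a drought-induced gene, which had 9.69, 9.66 and 9.79 in sdg2 and 11.72, 11.65 and 11.71 in wild type, a change of -1.98 ± 0.04 (adjusted p = 1.51e-05 in limma). On the other side of SWEET17, AT4G15930 was not called, with a change of 0.02. Beside SWEET2, AT3G14760 fell by 0.67 ± 0.04, with means of 5.76 in sdg2 and 6.43 in wild type, and AT3G14780 lay near background. Beside SWEET16, which fell, AT3G16680 lay near background, with means of 2.47 in sdg2 and 2.53 in wild type and a change of -0.06 that was not called, and AT3G16700 rose by 0.87 ± 0.21 (adjusted p = 0.0262), with means of 5.17 in sdg2 and 4.29 in wild type. That call was lost with a replicate block (adjusted p = 0.067), with unmoderated statistics (0.0647) and when sdg2 replicate 3, or else wild type replicate 1 or 2, was left out (0.0578 to 0.0868). The neighbours of SWEET1 and SWEET11 were not analysed here.

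SWEETIE, a gene of carbohydrate metabolism that shares only part of its name with the carriers, had 6.74, 6.61 and 6.80 in sdg2 and 5.80, 6.05 and 6.18 in wild type. It rose by 0.70 ± 0.11 (adjusted p = 0.0061 in limma), with no overlap between the groups.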
